A study of Mus musculus with 14 samples.

Results

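The matrix protease genes described here were the 44 autosomal protein-coding genes of the mouse whose symbol is Mmp, Adamts or Timp followed by a number and at most 1 letter. They were taken from the GENCODE M21 annotation of the assembly GRCm38 (mm10), which holds 20807 autosomal protein-coding genes. There were 22 Mmp, 19 Adamts and 3 Timp genes on 16 chromosomes. For each gene, the sites of the study's first H3K27me3 experiment were collected. They were taken in the window of 1 kb either side of every annotated transcription start site (TSS) and in the gene body.

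The sites came from immortalised mouse embryo fibroblasts (iMEF), a cell line derived from mice with floxed Ash2l and Cre-ER. In all groups, the controls included, exon 4 of the endogenous Ash2l had been deleted and the cells lived on FKBP-HA2-ASH2L, a tagged human ASH2L brought in by a lentivirus. The groups were control cells and cells exposed to the PROTAC dTAG-13, which leads to degradation of the fusion protein, for 30 min, 2 h, 4 h, 8 h and 16 h. Each of these 6 groups had 2 replicates, and input chromatin was prepared from controls and from the 16 h treatment. The study shows its histone mark data for a single clone, NG3, so the sites are taken to describe a single clonal line.

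The study made a first and a second H3K27me3 experiment. The list used here combined the sites of all samples of the first experiment. It gave positions only, with no value for any library. Treated and control cells could therefore not be compared from this list, no replicate error could be given, and no test was run. The study itself compared the sites at each time with control, and those results were not used here. The depth behind a site is unknown, so the mark may be present where the list has no site. The 95% Wilson intervals given for shares of genes cover the counting of genes only, and genes that neighbour each other are not independent.

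Matrix metalloproteinases (Mmp) are zinc proteases that degrade collagens, gelatin, proteoglycans and other components of the extracellular matrix. Some are secreted and others are anchored in the plasma membrane. The Adamts genes encode secreted metalloproteases with thrombospondin motifs, which process procollagens, proteoglycans and von Willebrand factor, and the Timp genes encode tissue inhibitors of these proteases. H3K27me3, the trimethylation of lysine 27 of histone H3, is set by Polycomb repressive complex 2 and is found over silent genes, often as broad stretches at CpG-rich promoters.

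Marker genes of several cell types were looked up in the same list. Of 13 fibroblast genes, among them Col1a1, Col3a1, Pdgfrb, Thy1 and Dcn, 5 had a site at a TSS (38.5%) and 0 had one of 2 kb or more, compared with 31.3% and 16.5% of all autosomal protein-coding genes. Sites of this width were found at TSSs of 2 of 5 epithelial genes (Cdh1 and Epcam), 2 of 4 blood genes (Spi1 and Tal1), 1 of 3 endothelial genes (Kdr) and 1 of 3 neural genes (Neurod1). These lists are short, and a site list does not show expression, so the label iMEF could not be checked further.

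Promoters of the matrix protease genes were of unlike sequence, and a few are printed because the sites fell differently on them. The sequences are the 250 bases before the start given by RefSeq (GRCm38.p6), 5′ to 3′ on the strand of the gene, and 30 of the 44 genes had an entry. The first set is from the Mmp genes that lie in a row on chromosome 9, none of which had a wide site. Capitals mark TATAAA, a core promoter element, and TGANTCA, which is the sequence bound by AP-1, on either strand.
Mmp3 (chr9:7445572-7445821, plus strand): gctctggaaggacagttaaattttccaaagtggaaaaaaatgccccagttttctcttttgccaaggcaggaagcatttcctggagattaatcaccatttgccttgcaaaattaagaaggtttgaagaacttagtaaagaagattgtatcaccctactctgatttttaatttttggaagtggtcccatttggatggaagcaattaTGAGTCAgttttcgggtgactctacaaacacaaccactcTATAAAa
Mmp10 (chr9:7502092-7502341, plus strand): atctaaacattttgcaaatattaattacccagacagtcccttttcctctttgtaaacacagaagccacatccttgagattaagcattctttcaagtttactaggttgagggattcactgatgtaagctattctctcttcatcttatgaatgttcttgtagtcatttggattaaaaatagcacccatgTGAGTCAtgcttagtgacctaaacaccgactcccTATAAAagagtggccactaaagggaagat
Mmp13 (chr9:7272264-7272513, plus strand): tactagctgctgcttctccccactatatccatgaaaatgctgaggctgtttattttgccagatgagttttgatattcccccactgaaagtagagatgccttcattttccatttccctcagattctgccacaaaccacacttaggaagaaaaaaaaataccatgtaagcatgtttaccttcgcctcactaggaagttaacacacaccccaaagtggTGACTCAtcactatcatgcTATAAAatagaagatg

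The second set has capitals at each CG dinucleotide. Mmp24, Mmp25 and Adamts9 had a site of more than 4 kb over the start, whereas Timp3 had none in its window or body.
Mmp24 (chr2:155775092-155775341, plus strand): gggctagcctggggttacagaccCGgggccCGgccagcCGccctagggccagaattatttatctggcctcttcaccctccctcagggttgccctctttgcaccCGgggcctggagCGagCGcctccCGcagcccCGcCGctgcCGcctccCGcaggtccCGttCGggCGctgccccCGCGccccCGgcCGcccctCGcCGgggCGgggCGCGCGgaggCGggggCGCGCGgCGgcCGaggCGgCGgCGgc
Mmp25 (chr17:23645270-23645519, minus strand): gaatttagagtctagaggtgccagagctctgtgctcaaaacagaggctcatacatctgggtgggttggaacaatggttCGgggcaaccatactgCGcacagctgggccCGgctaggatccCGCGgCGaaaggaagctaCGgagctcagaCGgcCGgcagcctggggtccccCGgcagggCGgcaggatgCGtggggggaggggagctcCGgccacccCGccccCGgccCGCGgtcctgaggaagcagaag
Adamts9 (chr6:92943535-92943784, minus strand): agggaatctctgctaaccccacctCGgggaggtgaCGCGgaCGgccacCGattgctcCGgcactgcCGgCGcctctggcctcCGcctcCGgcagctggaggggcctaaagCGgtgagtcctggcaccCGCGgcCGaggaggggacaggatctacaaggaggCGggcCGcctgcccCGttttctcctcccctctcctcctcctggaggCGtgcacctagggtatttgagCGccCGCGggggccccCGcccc
Timp3 (chr10:86300162-86300411, plus strand): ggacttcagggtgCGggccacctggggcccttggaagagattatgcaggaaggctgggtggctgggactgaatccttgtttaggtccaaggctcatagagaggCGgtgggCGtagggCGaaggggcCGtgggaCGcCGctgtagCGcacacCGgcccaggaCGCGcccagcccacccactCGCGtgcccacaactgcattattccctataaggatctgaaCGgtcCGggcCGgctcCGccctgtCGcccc

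The stretches of Mmp3, Mmp10 and Mmp13 each held 1 CG. Those of Mmp24, Mmp25, Adamts9 and Timp3 held 33, 17, 22 and 18. In the windows of 250 bases before to 50 after the start, TATAAA was found on either strand in 8 of the 9 genes of the chromosome 9 row (88.9%), in 2 of 21 other matrix protease genes (9.52%) and in 15.7% of the 25748 autosomal genes with an entry. A gene with several windows was counted once, if any of them held the letters. The set with an entry is larger than the 20807 autosomal protein-coding genes used elsewhere, so this background differs in its genes. TGANTCA was found in 7 of the 9 (77.8%), in 0 of the 21 and in 9.05% of all genes with an entry. The 7 genes with an entry and a site of 2 kb or more at a TSS contained neither sequence. Of the 14 genes outside the row with an entry and no such site, 2 had TATAAA and 0 had TGANTCA. The median number of CG in these windows was 1 for the row and 21 for the other matrix protease genes. It was 22 for the 7 with a wide site and 20 for the 14 outside the row without one. A match is a description of the letters and does not show that a factor binds there.

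H3K27me3 sites were found at a TSS of 20 of the 44 matrix protease genes (45.5%, 95% interval 31.7 to 59.9%), compared with 31.3% of all autosomal protein-coding genes. A site in the window or the gene body was found for 30 (68.2%, 53.4 to 80.0%), compared with 47.8%. Wide sites, of 2 kb or more, overlapped a TSS window in 13 genes (29.5%, 18.2 to 44.2%), compared with 16.5%. For sites of 5 kb or more, the number was 10 (22.7%, 12.8 to 37.0%), compared with 9.05%. The share of the matrix protease genes was above the background for each of these 4 measures. With only sites at least 500 bp wide, 15 genes had one in the window or body (34.1%), compared with 30.4%. When the centre of a wide site had to be in the window, 8 genes had one (18.2%), compared with 9.13%.

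The shares differed between the families. Among the Adamts genes, 11 of 19 had a site at a TSS (57.9%, 36.3 to 76.9%) and 8 had a wide one (42.1%, 23.1 to 63.7%). Among the Mmp genes, the numbers were 8 of 22 (36.4%, 19.7 to 57.0%) and 5 of 22 (22.7%, 10.1 to 43.4%). The shares of all autosomal protein-coding genes were 31.3% and 16.5%. Of the 3 Timp genes, 1 had a site at a TSS and 0 had a wide one. The intervals of the Adamts and Mmp genes overlapped in both measures.

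**Figure D1:**
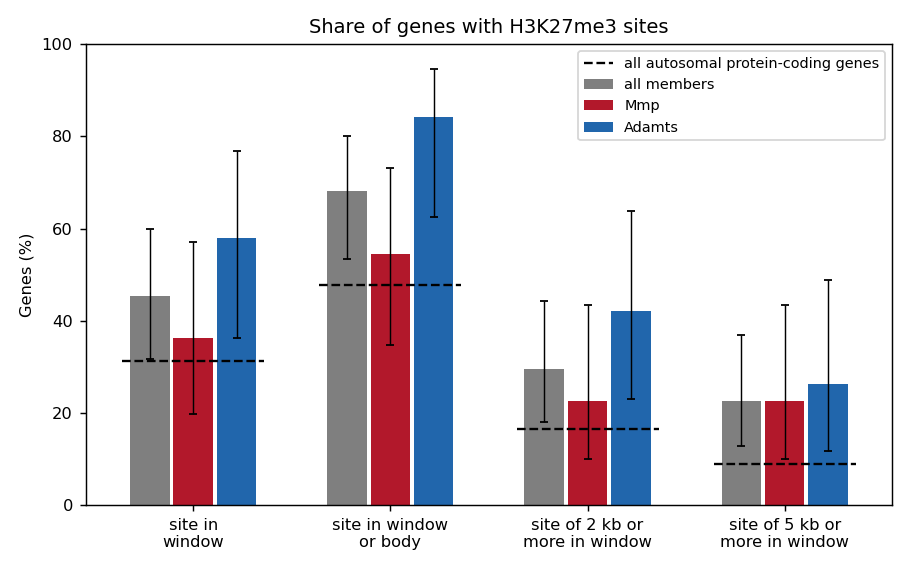
Share of genes (y axis, %) with an H3K27me3 site in the TSS window, in the window or body, and with a site of 2 kb or 5 kb or more in the window. Bars show all 44 matrix protease genes, the 22 Mmp and the 19 Adamts genes with 95% Wilson intervals. Dashed lines show all 20807 autosomal protein-coding genes. The bars of the Adamts and of the Mmp genes are above the dashed line for each measure.

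The shares were also set beside genes of like length. Of the 17 matrix protease genes under 20 kb, 6 had a site in the window or body (35.3%), compared with 36.4% of all genes of that length. In the class of 20 to 100 kb, the number was 14 of 16 (87.5%), compared with 54.3%, and for genes of 100 kb or more it was 10 of 11 (90.9%), compared with 81.7%. Wide sites at a TSS were found for 2 of 17 short genes (11.8%, background 15.2%), 6 of 16 of intermediate length (37.5%, background 15.7%) and 5 of 11 long genes (45.5%, background 24.7%). The short matrix protease genes were thus close to the background in both measures.

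The 44 genes had 203 sites in all. Their median width was 436 bp, compared with 460 bp for all autosomal sites, and 30 of them had the smallest width of 200 bp. Sites of 2 kb or more numbered 30 (14.8%, compared with 11.7% of the autosomal sites), and the widest had 12134 bp. Sites covered 6.82% of the windows and bodies of these genes, compared with 7.08% for all autosomal protein-coding genes and 6.33% of the autosomes. The centre of 153 sites was in an intron, of 38 in an exon, of 10 upstream of the gene and of 2 downstream. Thus the covered share was near that of other genes, while it was distributed unevenly among the 44.

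The widest site in the window had between 200 and 938 bp in 7 genes and between 2354 and 12134 bp in 13 genes. A widest site from 1 kb to under 2 kb was found for 0 of these 20 genes and for 12.1% of all autosomal protein-coding genes with a window site, which for 20 genes is a small difference. For 10 of the 13 genes with a wide window site, a site of this kind covered the gene start, and for Mmp9, Mmp17 and Adamts17 the start lay in a gap between sites.

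**Figure D2:**
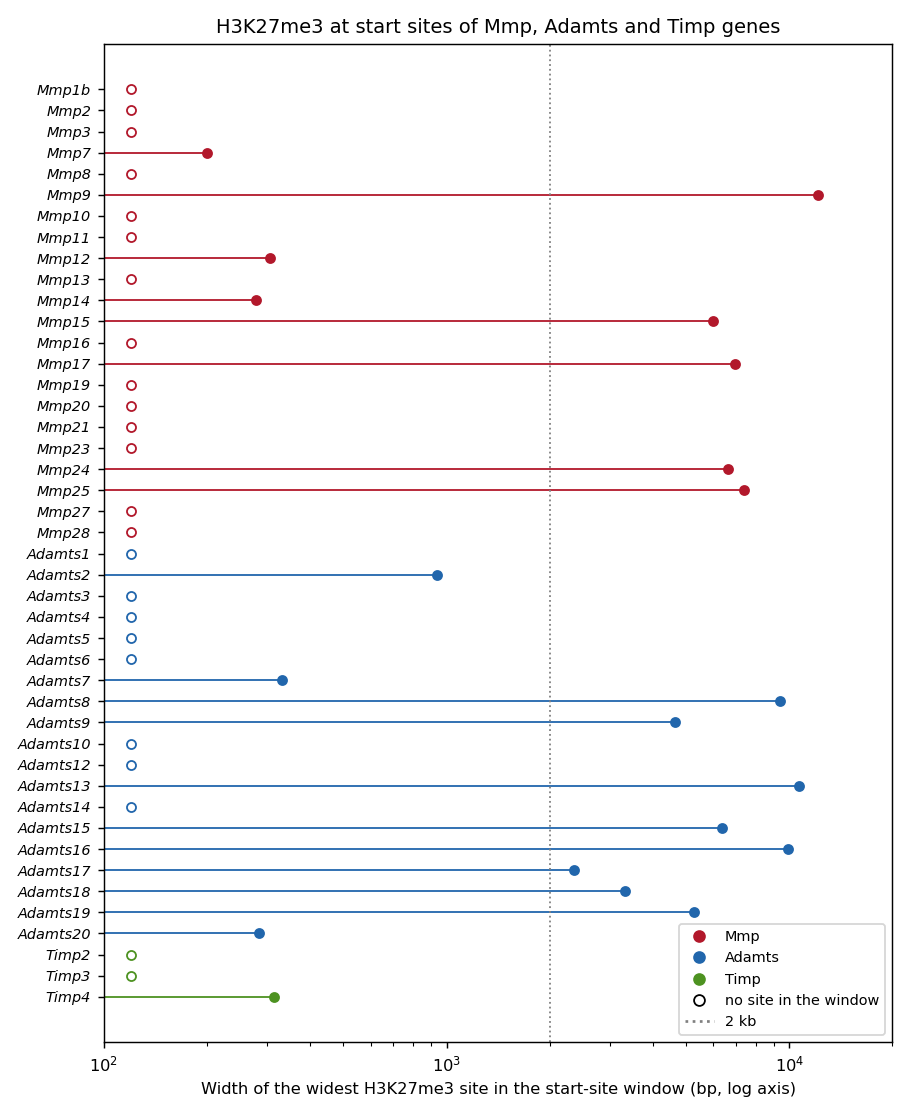
Width of the widest H3K27me3 site in the TSS window of each gene (x axis, bp, log scale), with open circles at the left for the 24 genes without a window site and a dotted line at 2 kb. The 13 genes to the right of the line have 2354 bp or more, and the other 7 filled points have 938 bp or less.

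**Figure D3:**
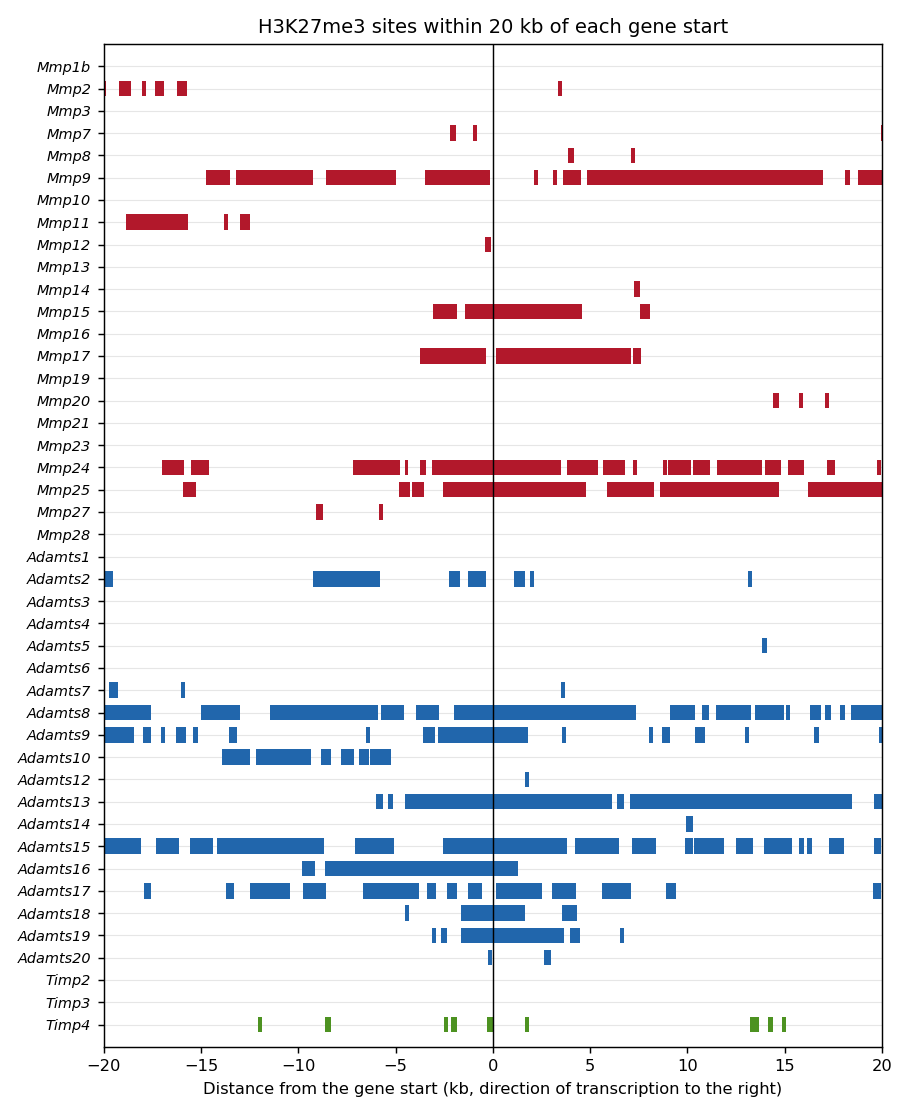
Sites (bars) within 20 kb of the gene start (x axis, kb, transcription to the right) for each of the 44 genes (rows), in red for Mmp, blue for Adamts and green for Timp. Bars are broad around the start of 13 genes, such as Adamts8 and Mmp25, and absent from the whole range for others, such as Mmp3 and Timp3.

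The gelatinases were unlike each other. Mmp9, gelatinase B, had 5 sites in its windows or body, and 76.6% of its body was covered (chr2:164940780-164955850). The widest of all sites of the 44 genes, with 12134 bp, began inside the gene and ran past its end, and it overlapped the window of an alternative TSS. The annotated gene start itself was in a gap of 2269 bp, and a site of 3321 bp ended 155 bp before it. When sites closer than 5 kb were joined, Mmp9 lay in a stretch of 76.7 kb that also reached Slc12a5, a potassium chloride cotransporter gene, and Ncoa5. Mmp2, gelatinase A, had only 1 site of 200 bp, with its centre in an exon 3438 bp from the start (chr8:92827291-92853420).

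Of the 6 membrane-type Mmp genes, 5 had a window site and 4 had a wide one. Mmp25 and Mmp17 encode the enzymes held by a lipid anchor. Mmp25 (chr17:23628311-23645277) was covered over 82.9% of its body, the highest share of the 44 genes, by 4 sites of 2423 to 7357 bp. Mmp17 (chr5:129584169-129611099) had 5 sites and 31.7% covered, with a site of 3361 bp before its start and one of 6942 bp after it, separated by a gap of 533 bp.

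The transmembrane members were split. Mmp24 (chr2:155775342-155818366) had 13 sites, of which the widest, 6632 bp, reached from 3.13 kb upstream to 3.50 kb downstream of the start, and 36.3% of its body was covered. Mmp15 (chr8:95352268-95375080) had a site of 5987 bp over its start, 1 further site and 22.3% covered. In contrast, Mmp14, which encodes the activator of pro-Mmp2 at the surface of fibroblasts, had 1 site of 278 bp, 7.27 kb into the gene and within 1 kb of an alternative TSS (chr14:54431612-54445364). Mmp16 (chr4:17852893-18119145) had no site, and the nearest to its start was 820.0 kb away.

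None of the 3 collagenase, 3 stromelysin, matrilysin and macrophage elastase genes among the 44 had a wide site at a TSS. Mmp1a, a further collagenase gene, was not among the 44 and has no values here. Apart from Mmp11, these genes belong to the row on chromosome 9 described further on. The remaining Mmp genes had few sites too. Mmp28, epilysin, had 1 site of 1097 bp with its centre in an exon at the 3′ side of the gene, and Mmp19, Mmp21 and Mmp23 had none. Mmp11, stromelysin 3, had none in its window or body, while its nearest site was 12.5 kb and its nearest wide site 15.7 kb from the start.

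Among the Adamts genes that cleave aggrecan, versican and related proteoglycans, 3 of 7 had a wide window site. Adamts8 (chr9:30942562-30963838) had 11 sites, the widest of 9366 bp over its start, and 77.3% of its body was covered. Adamts15 (chr9:30899155-30922452) had 12 sites, the widest of 6360 bp over its start, and 68.4% covered. Adamts9 (chr6:92772699-92943492) had 24 sites, of which only the one of 4626 bp over its start was wide, and 7.43% covered. Adamts20, the gene closest in kind to Adamts9, had 4 sites of 200 to 366 bp. Adamts1 and Adamts4, the latter known as aggrecanase 1, had no site, and Adamts5, aggrecanase 2, had 2 sites of 259 and 352 bp, both away from its start.

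Adamts8 and Adamts15 neighbour each other head to head. The interval from one gene end to the other (chr9:30899155-30963838) had 27 sites that covered 72.4% of its 64.7 kb, and the stretch between the genes was covered to 71.9%. Flanks of the same length were covered to 23.6% before Adamts15 and 42.8% after Adamts8. With sites closer than 5 kb joined, both genes lay in 1 stretch of 102 kb. Adamts1 and Adamts5, which also neighbour each other but run in the same direction, had 2 sites over 108 kb (chr16:85793827-85901828) that covered 0.566%.

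The procollagen N-proteinases, which remove the N-terminal propeptide of fibrillar procollagens, had no wide site. Adamts2 had 4 sites of 214 to 938 bp and Adamts3 and Adamts14 had 1 and 3 sites of at most 371 bp. The shares of their bodies covered were 0.492%, 0.177% and 1.45%. Adamts7 and Adamts12, which cleave cartilage oligomeric matrix protein, had 2 sites and 1 site of at most 331 bp.

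Adamts13, the protease of von Willebrand factor that is made in the liver, was among the most covered genes (chr2:26973416-27009628). It had 7 sites over 71.8% of its body. The one over its start had 10645 bp and reached from 4.54 kb upstream to 6.10 kb downstream, and a second of 11402 bp lay in its body. The promoter was not CpG-rich, with an observed to expected CpG ratio of 0.0986.

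Of the other 6 Adamts genes, 4 had a wide window site. These were long genes in which the site lay at the start and little of the body was covered, except for Adamts17. Adamts16 (chr13:70727802-70841811) had a site of 9906 bp, of which 8.63 kb were upstream of the start, and 2.94% of the body covered. Adamts19 (chr18:58836667-59054060) had one of 5286 bp and 2.75% covered. Adamts18 had one of 3318 bp and 2.15% covered.

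Adamts17, mutated in a form of Weill-Marchesani syndrome, had 64 sites in its windows or body, the most of the 44 genes. The gene has 313 kb (chr7:66839735-67153171), of which 16.9% was covered. Its body was covered to 29.8% in the part nearest to the start, 5.02% in the middle part and 16.0% in the last part of equal length. Adamts6 had 3 sites of 200 to 355 bp. Adamts10 had none in its window or body, although sites began 5.26 kb before its start and the nearest wide one was 9.33 kb away.

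**Figure D4:**
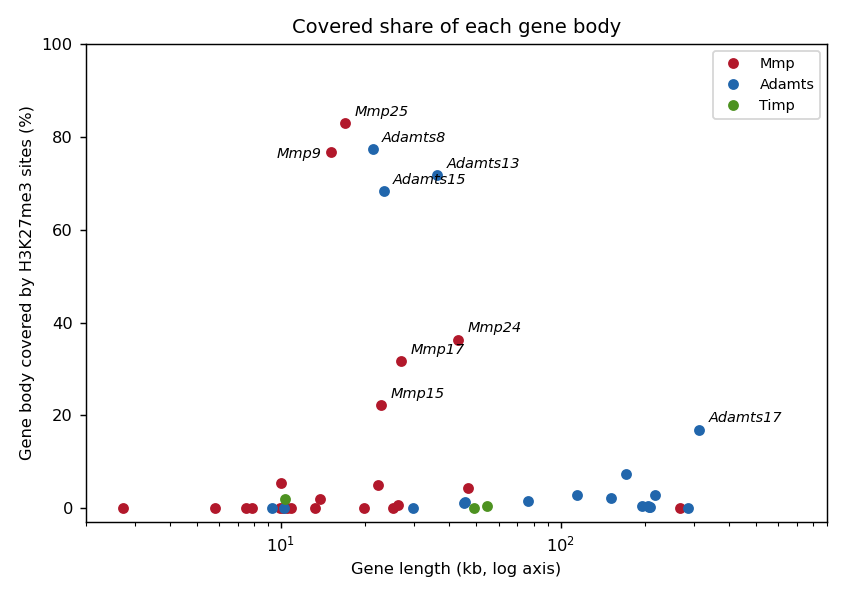
Share of each gene body covered by H3K27me3 sites (y axis, %) against gene length (x axis, kb, log scale), 1 point per gene, with names for genes covered over more than 10%. Mmp25, Adamts8, Mmp9, Adamts13 and Adamts15 lie between 68.4 and 82.9%, Mmp24, Mmp17, Mmp15 and Adamts17 between 16.9 and 36.3%, and the rest at 7.43% or less.

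Of the 44 genes, 5 had 50% or more of the body covered (11.4%, 4.95 to 23.98%), close to the 9.53% of all autosomal protein-coding genes. They were Mmp25, Adamts8, Mmp9, Adamts13 and Adamts15. The longest of the 5, Adamts13, had a length of 36.2 kb.

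The inhibitors had only narrow sites. Timp4 had 2 sites, of which one of 313 bp covered its start (chr6:115241892-115252205), and this gene lies within Syn2. Timp2 had 1 site of 294 bp, 51.8 kb from its start (chr11:118301069-118355740). Timp3 had none, and the nearest to its start was 65.2 kb away (chr10:86300372-86349506).

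On chromosome 9, 9 of the Mmp genes stand in a row over 427 kb (chr9:7272514-7699585). In the order of the chromosome they are Mmp13, Mmp12, Mmp1b, Mmp3, Mmp10, Mmp8, Mmp27, Mmp20 and Mmp7. This row had 13 sites, none wider than 441 bp, and these covered 0.847% of it, compared with 8.28% of chromosome 9. The number of sites per Mb was 30.4, compared with 78.2 for the chromosome.

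Of these genes, 5 had no site in the window or body, namely Mmp13 (collagenase 3), Mmp1b, Mmp3 and Mmp10 (stromelysins 1 and 2) and Mmp27. The nearest sites were 71.5, 43.8, 91.9, 35.4 and 5.64 kb from their starts, respectively. Mmp12, macrophage elastase, had 1 site of 305 bp, which ended 93 bp before the start. Mmp7, matrilysin, had 1 site of 200 bp in its window, 803 bp before the start. Mmp8, neutrophil collagenase, had 2 sites of 200 and 336 bp in its body, and Mmp20, the protease of tooth enamel, had 7 of 200 to 441 bp, the nearest of which was 14.4 kb from its start. The longest stretch without a site was 193 kb.

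The surroundings had few sites as well. The 427 kb before the row held 0 sites and the 427 kb after it held 8, covering 0.439%. The nearest site of 1 kb or more was 3944 kb before the row and 844 kb after it, the latter at Trpc6, an ion channel gene. For all 9 genes there was no site of 2 kb or more within 1 Mb of the start, compared with 1 of the 13 other Mmp genes (Mmp16), 4 of 19 Adamts genes and 0 of 3 Timp genes. Together these were 14 of the 44 genes (31.8%), compared with 9.12% of all autosomal protein-coding genes, and the 9 genes share 1 region.

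The sequence of the row was examined because reads from repeated sequence can be lost. Of its stretches of 75 bases, 12.97% occurred again in the reference, compared with 8.09% in the flank before the row. The reference included patch sequences, so a stretch repeated only on a patch was counted too. For single genes the share was 40.3% for Mmp1b and 16.5% for Adamts13, and below 10% for the other 42. The GC content of the row was 40.8%, compared with 42.7% for chromosome 9. The part of repeats in the small number of sites was not tested.

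**Figure D5:**
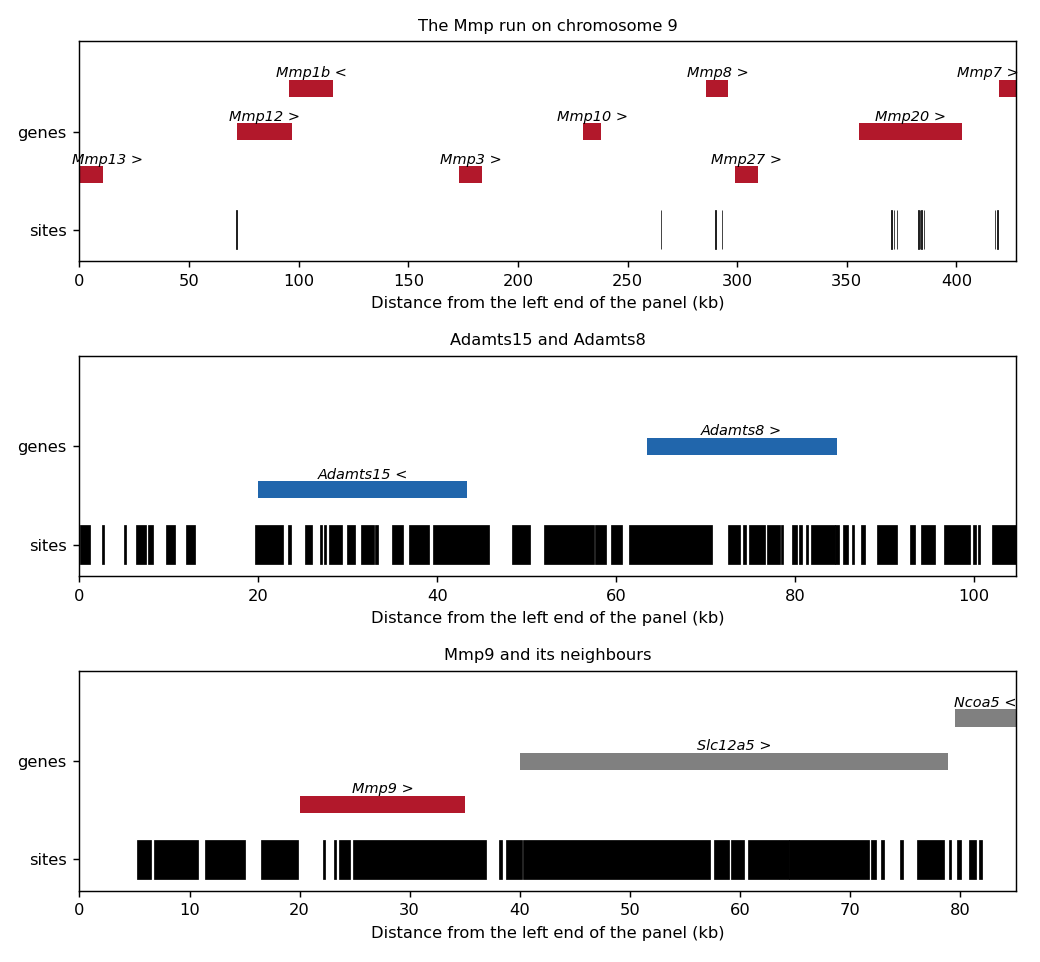
Sites (black bars) and protein-coding genes (red for Mmp, blue for Adamts, grey for others, with > and < for the direction of transcription) against the distance from the left end of each panel (kb). The Mmp row on chromosome 9 holds 13 sites of at most 441 bp, whereas the stretch of Adamts15 and Adamts8 and that of Mmp9 and Slc12a5 are mostly covered, with a site of 9366 bp at Adamts8 and one of 12134 bp at Mmp9.

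The base composition of the promoter was computed over 500 bp on either side of the gene start, where a promoter was called CpG-rich at a GC content of at least 50% and an observed to expected CpG ratio of at least 0.6. In the 13 genes with a wide window site the GC content had a median of 61.6% (range 51.3 to 76.4%) and the CpG ratio a median of 0.693, and 9 were CpG-rich. In the other 31 genes the medians were 52.1% (37.0 to 72.0%) and 0.463, and 8 were CpG-rich. The ranges overlapped. Much of the gap came with the chromosome 9 row, as the 22 genes without a wide site outside it had medians of 57.3% and 0.553.

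A wide site was thus found at 9 of 17 CpG-rich promoters of matrix protease genes (52.9%, 31.0 to 73.8%), compared with 14.3% of all CpG-rich promoters. Of their other promoters, 4 of 27 had one (14.8%, 5.92 to 32.5%), compared with 18.3%. These 4 were Mmp9, Mmp25, Adamts13 and Adamts16. The 8 CpG-rich promoters without a wide site were those of Mmp14, Mmp23, Adamts1, Adamts2, Adamts3, Adamts7, Adamts14 and Timp3. Without the 9 genes of the chromosome 9 row, which have no CpG-rich promoter, the Mmp genes had a wide site in 5 of 13 cases (38.5%), near the share of the Adamts genes.

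Genes that work with these proteases were counted in the same way. Of 34 such genes, comprising activators and inhibitors, Adam and Adamts-like genes and substrates, 15 had a site at a TSS (44.1%) and 7 had a wide one (20.6%, background 16.5%). The widest were at substrates of cartilage, brain and blood, namely Ncan with 23202 bp, Bcan with 18757 bp, Acan with 17446 bp, Col2a1 with 15578 bp and Vwf with 4451 bp. A protease and its substrate were not always alike. Adamts13 and Vwf both had a wide site, whereas Comp had one of 2189 bp and Adamts7 and Adamts12 had none. Col2a1 had a wide site and the procollagen N-proteinase genes had none. Among the genes for proteases of aggrecan and related proteoglycans, Adamts8, Adamts9 and Adamts15 had one. Adamts1, Adamts4, Adamts5 and Adamts20 did not. At Vcan, which encodes versican of fibroblasts, and at Fn1 (fibronectin), Furin, Plau, Plaur and the X-linked Timp1 no site overlapped a TSS window. Among others, Reck, Serpine2, Plg and Adam17 had one, with widest window sites of 1887, 1654, 1478 and 359 bp.

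The collagens, the main substrates of Mmp enzymes, served as a further comparison. Of 42 autosomal collagen genes, 24 had a site at a TSS (57.1%) and 16 had a wide one (38.1%), compared with 45.5% and 29.5% of the matrix protease genes. Sites of 5 kb or more were at TSSs of 6 collagen genes (14.3%) and 10 matrix protease genes (22.7%). No site of 2 kb or more within 1 Mb was a feature of 5 collagen genes (11.9%) and 14 matrix protease genes (31.8%). The share of all autosomal protein-coding genes was 9.12%. Of the 14 matrix protease genes, 9 were those of the chromosome 9 row, which share a single region.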

How the data were processed

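H3K27me3 ChIP-seq was performed by the authors on iMEF cells (12 libraries and 2 inputs in the first experiment, the one used here). Per the submitters' processing notes, BWA, SAMtools, MACS2, deepTools and DESeq2 were used with mm10. Versions and peak thresholds are not given in the sources used here. The deposited table holds positions of sites (chromosome, start and end), brought together over all samples, without counts, scores or values for single libraries. The number of columns with values of a library that were not assigned to a sample was 0. Starts were taken as 0-based and ends as exclusive, since this gives a smallest width of 200 bp, and printed positions are 1-based.

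Genes and TSSs were taken from GENCODE M21, an earlier release than the one of the study, and promoters from RefSeq (GRCm38.p6), and all 33 RefSeq windows equalled the genome. Any overlap counted. Scripts used Python 3.11.15, numpy, pysam and scipy, and were tested on 200 simulated lists, of which 0 differed from a direct count. The planned tests of treated against control libraries were not run. The members, the lists of markers and partners and the measures were chosen with earlier results of these data known. All 44 genes were accounted for. The rule for genes described in full covered the chromosome 9 row, the Timp genes, the 10 genes with the widest window site, the 5 with the most covered body and, by name, those without a site, and for partners the 5 with the widest site. Further genes were named after their values were seen. Alternatives concerned the width, joining, window, transcripts and site centres.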

Additional observations from a re-analysis of the deposited data

How the results depend on the processing

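No paired analysis was possible because single libraries have no values in the deposited list. Leaving out a replicate, other count tests, normalizations and filters on low counts were therefore not run. A count or share within 1.5 times of the reported one was regarded as kept. The settings on width and joining act on the list by construction. With only sites at least 500 bp wide, 15 genes had a site in the window or body (34.1%, compared with 30.4% of all genes). The genes then had 92 sites, and the chromosome 9 row had 0 sites and a covered share of 0%. With only sites at least 1 kb wide, 13 genes had a window site (29.5%, compared with 20.3% of all genes). In the window or body, 14 had one (31.8%, compared with 24.3%). In this setting the genes had 57 sites, and the row had 0 sites and 0% covered. With sites closer than 1 kb joined, the genes had 121 sites and the row had 8, with 1.68% covered. With those closer than 5 kb joined, the genes had 71 sites and 11.2% of their regions covered, and the row had 6 sites and 2.63% covered. The number of genes with a wide window site was 13 in most settings chosen after the data had been seen, 16 with sites closer than 5 kb joined and 8 when the centre of the site had to be in the window. The shares of all genes for the settings on width and site centre were also computed after the data had been seen. None is given for joined sites. All other values of the alternatives stayed within this range. How many narrow sites would be found at another depth is unknown.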
